A study of Mus musculus with 7 samples.

Results

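The nuclear genes for subunits of the oxidative phosphorylation complexes were examined in the lower incisor epithelium of 7 newborn mouse pups. The genes were taken by their GRCm38 symbols (the Nduf a, b, c, s and v series, Sdh a to d, Uqcr, Cox 4 to 8 and Atp5), kept if annotated as protein coding, without the Ndufaf assembly factors, and with 10 or more counts in 2 or more of the 7 libraries. Of 90 genes with such a symbol 89 were among the 25700 counted genes. Cox6a2, Cox7b2, Cox8b and Cox8c, which are isoforms known from striated muscle or testis, stayed under the minimum, and 85 genes remained. These were 36 genes of complex I, 8 of complex II, 8 of complex III, 16 of complex IV and 17 of complex V. The symbols also take Sdhaf1 to Sdhaf4, which are assembly factors of complex II, and Atp5s, a factor coupled to ATP synthase. Ndufa4 and its relative Ndufa4l2 carry a complex I name and were placed in complex IV, where the Ndufa4 protein is known to sit.

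Libraries 1, 2, 7 and 10 came from 4 K14;Nogo-A pups (genotype K14cre cre/+; Nogo-A fl/fl) and libraries 3, 8 and 9 from 3 wild-type pups. All pups were newborn (PN0), and 1 library is the epithelium from the posterior part of both lower incisors of 1 pup, separated with Dispase and pooled. The K14 promoter drives Cre in keratin 14 expressing epithelium, so mesenchymal cells left in a sample keep the floxed alleles uncut. The other pups are labelled wild-type without further detail, and the paper calls them control littermates. Cre without floxed alleles was not analysed here. Rtn4, the gene of Nogo-A, had 297, 344, 328 and 340 CPM (the count relative to the scaled size of the library) in the K14;Nogo-A libraries 1, 2, 7 and 10 and 281, 277 and 346 CPM in the wild-type libraries 3, 8 and 9. Its count pools all forms of the gene and does not check the deletion, which removes only the exon of the Nogo-A form.

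Oxidative phosphorylation passes electrons from NADH (complex I) and succinate (complex II) to ubiquinone, on to cytochrome c through complex III and to oxygen through complex IV, and the proton gradient that complexes I, III and IV build drives ATP synthase, complex V. Most subunits are encoded in the nucleus and imported, while a small set at the heart of complexes I, III, IV and V is encoded in mitochondrial DNA. Ameloblasts, the enamel-forming cells of this epithelium, are known for heavy secretion and ion transport.

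All 85 genes were well inside the range of a count test except Cox7a1, whose counts lay between 10 and 22. Levels were compared between genes as CPM per kilobase of the principal transcript, as a mean over the 7 libraries. The median over the 85 genes was 106 CPM per kilobase and the range 1.49 to 671. Complex I had a median of 68.6 CPM per kilobase, complex III 161, complex V 163 and complex IV 182. Complex II had 37.0, a median that includes its 4 assembly factors (2.47 to 25.6). Its subunit genes Sdha, Sdhb, Sdhc and Sdhd had 72.9, 136, 48.5 and 88.1. The highest single genes were Atp5b (671 CPM per kilobase) and Atp5a1 (428), the beta and alpha subunits that form the catalytic head of ATP synthase. Cox8a (401) and Cox4i1 (388), small subunits around the catalytic core of cytochrome c oxidase, followed in complex IV, Uqcrh (297), the hinge protein next to cytochrome c1, and Uqcrc1 (190), a core protein, led complex III. In complex II the iron-sulphur subunit Sdhb (136) stood above the membrane anchor Sdhd (88.1), and in complex I the accessory subunits Ndufb11 (165) and Ndufa2 (162) were highest. At the other end stood Cox7a1 (1.49), Sdhaf3 (2.47) and Atp5s (4.15). Atp5l (9.19) and Ndufb4 (8.17) were also low, and both share transcript sequence with annotated pseudogenes, so that part of their reads may have been left out or placed elsewhere: 69.0% of the 100-base windows of Atp5l and 33.4% of those of Ndufb4 occurred in another annotated gene. The same held for 86.4% of the windows of Atp5g2 and, through an overlap with a neighbour on the other strand, for 68.3% of those of Sdhaf1.

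The 300 bases around the start of each gene (250 before and 50 after) were available in the RefSeq promoter table of build GRCm38.p6 for 69 of the 85 genes. They were searched on both strands for letters known to bind nuclear respiratory factor 1 (NRF-1, GCATGCGC), ETS factors such as GABP (CCGGAAG), YY1 (AAGATGGCG) and the estrogen-related receptors (ERR, TCAAGGTCA), which are the factors best known for these genes, and for the TATA box (TATAAA). The NRF-1 letters stood in 10 of the 69 promoters (14.5%), against 2.8% of all 27025 promoters and 5.17% of the 11196 promoters of genes tested here. The ETS letters stood in 18 (26.1%), against 9.12% of all and 16.9% of those tested, the YY1 letters in 6 (8.7%), against 1.49% and 2.94%, and the ERR letters in 2 (2.9%), against 0.407% and 0.25%. TATAAA stood in 6 (8.7%), against 14.2% and 6.96%. All 6 YY1 matches read in the direction of the gene and lay in the transcribed part of the window. So did 48.0% of the matches over all promoters and 56.8% over the promoters of genes tested here. The stretches below, each of 30 bases, are some of those of genes whose values are described further on. Others, such as the NRF-1 matches of Atp5g2 and Uqcrc1 and the ETS matches of Cox8a and Uqcrh, are not printed. The matched letters are in capitals, written 5′ to 3′ along the gene. All of the genes printed lie on the minus strand except Sdhb.
Uqcr11, ETS, chr10:80406870-80406899: tttctctcctccCCGGAAGtagatgtcaat
Uqcr11, NRF-1, chr10:80406807-80406836: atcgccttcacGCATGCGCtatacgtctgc
Atp5k, NRF-1, chr5:108434430-108434459: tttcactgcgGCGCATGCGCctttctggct
Atp5e, ETS, chr2:174464186-174464215: ctacggccacagCTTCCGGtagccgctcgg
Ndufb6, ETS, chr4:40279636-40279665: atcgtccttgttCTTCCGGtcccctcccct
Cox6b1, ETS, chr7:30626125-30626154: ctcctctcgcagCTTCCGGccagtcggaat
Sdhb, NRF-1, chr4:140961206-140961235: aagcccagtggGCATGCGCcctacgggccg
Atp5g3, ERR, chr2:73911360-73911389: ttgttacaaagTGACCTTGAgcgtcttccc
In Atp5k the capitals cover 2 overlapping NRF-1 matches, 1 on each strand, which together make a palindrome from 50 to 41 bases before the start. In Uqcr11 the ETS match ran from 66 to 60 bases before the start, and the NRF-1 match lay across the start itself. These are matches of letters only, and binding was not measured. The median log2 fold change (K14;Nogo-A over wild-type) was 0.14 in member genes with the NRF-1 letters and 0.18 in those without. With and without the letters it was 0.19 and 0.18 for ETS, and 0.18 and 0.18 for both YY1 and ERR. For TATAAA it was 0.22 and 0.18. These medians were not compared by a test.

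The study asked how gene expression in the dental epithelium changes when Nogo-A is deleted there. Most nuclear subunit genes had slightly higher estimates in K14;Nogo-A than in wild-type. Of the 85 genes 74 had a log2 fold change above 0, with a median of 0.18 and a range from -0.39 to 1.18; over all 14791 genes tested 48.5% were above 0 and the median was -0.01. No member passed an adjusted p of 0.05 in edgeR's quasi-likelihood test in either direction, against 0.0% of all genes in the higher direction and 0.0338% (5 genes) in the lower. DESeq2 called 3 members higher (Ndufb6, Ndufa3 and Uqcr11), against 1.0% of all genes, and the likelihood-ratio test of edgeR 1 (Uqcr11), against 0.602%. By an unadjusted p under 0.05, 24 members were higher, against 6.25% of all genes tested, and 0 were lower, against 6.66%. Without wild-type library 3 this number was 8 (4.33% of all genes), without wild-type library 9 it was 33 (9.43%) and without K14;Nogo-A library 2 it was 34 (5.16%). Past the study's thresholds, that is an unadjusted P up to 0.05 together with a log2 change of 0.5 or more in either direction, 2 members were higher (Ndufa2 and Cox7a1), against 2.02% of all genes, and 0 lower, against 2.74%. In 14 members every K14;Nogo-A library lay above every wild-type library, against 5.43% of all genes, and in 0 members below, against 6.09%. These 14 were Ndufa1, Ndufa3, Ndufb6, Ndufc1, Ndufv1, Uqcr11, Uqcrfs1, Cox6b1, Cox7a1, Atp5g1, Atp5h, Atp5k, Atp5l and Atp5o. In bulk samples fewer cells of a type and less RNA per cell cannot be told apart, and a difference between these libraries may be either.

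**Figure D1:**
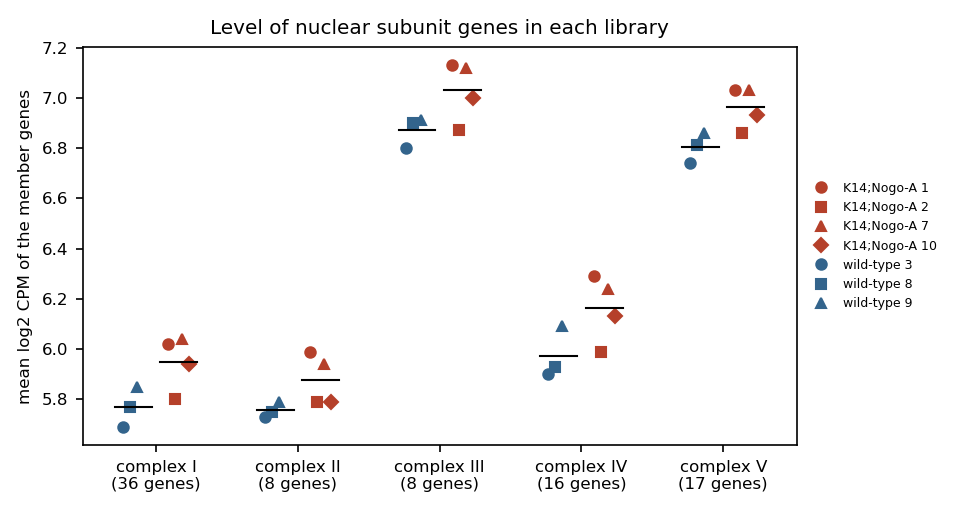
Mean log2 CPM over the member genes of each complex (vertical axis) in each library, with wild-type in blue, K14;Nogo-A in red and a bar at the mean of each genotype. The K14;Nogo-A mean was higher in all 5 complexes, by 0.12 to 0.19, and K14;Nogo-A library 2 lay below wild-type library 9 in complexes I, III and IV, while in complexes II and V the ranges met.

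The medians of the 5 complexes lay close together, between 0.14 and 0.19, and their differences were not tested. The median log2 fold change was 0.18 in complex I, 0.14 in complex II, 0.15 in complex III, 0.19 in complex IV and 0.15 in complex V. As a mean log2 CPM over all 85 genes, the K14;Nogo-A libraries lay between 6.15 and 6.37 and the wild-type libraries between 6.05 and 6.19, so the ranges overlapped. Library 2 had the lowest value of the K14;Nogo-A libraries in 66 of the 85 genes. Among the 24 genes higher at an unadjusted p under 0.05, wild-type library 9 was the highest wild-type library in 18 and stood above the lowest K14;Nogo-A library in 11, whereas wild-type library 3 did so in 0 and wild-type library 8 in 1.

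The libraries also differed by Y-linked genes, whose level was high in K14;Nogo-A library 1 and wild-type libraries 3 and 8 and near 0 counts in the other 4. Wild-type libraries 3 and 8 were also the deepest, with 41219439 and 38734443 counts against 20929207 to 29728532 in the others. Within the libraries with high Y-linked genes (1 K14;Nogo-A against 2 wild-type), the median log2 fold change of the members was 0.28, with 75 of 85 above 0. Within the other libraries (3 K14;Nogo-A against 1 wild-type) it was 0.09, with 68 of 85 above 0, and 3 members had an unadjusted p under 0.05 in the higher direction, a share near that of all genes in this fit (3.29%), and 1 in the lower. In both of these fits 1 genotype has a single library, which is assumed to vary like the others. With the Y-linked level as a covariate in all 7 libraries the median was 0.16, and with all libraries thinned to the same depth 0.17. Scaled to library totals alone, which count the ameloblast gene Amelx (2.76% to 7.08% of counts in K14;Nogo-A libraries, 1.11% to 3.36% in wild-type), the median of the members was 0.12 and that of all genes -0.06, and 63 of the 85 members had a log2 fold change above 0. The members together took 0.981% to 1.15% of the counts in K14;Nogo-A libraries and 0.984% to 1.08% in wild-type libraries, so the shares overlapped.

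**Figure D2:**
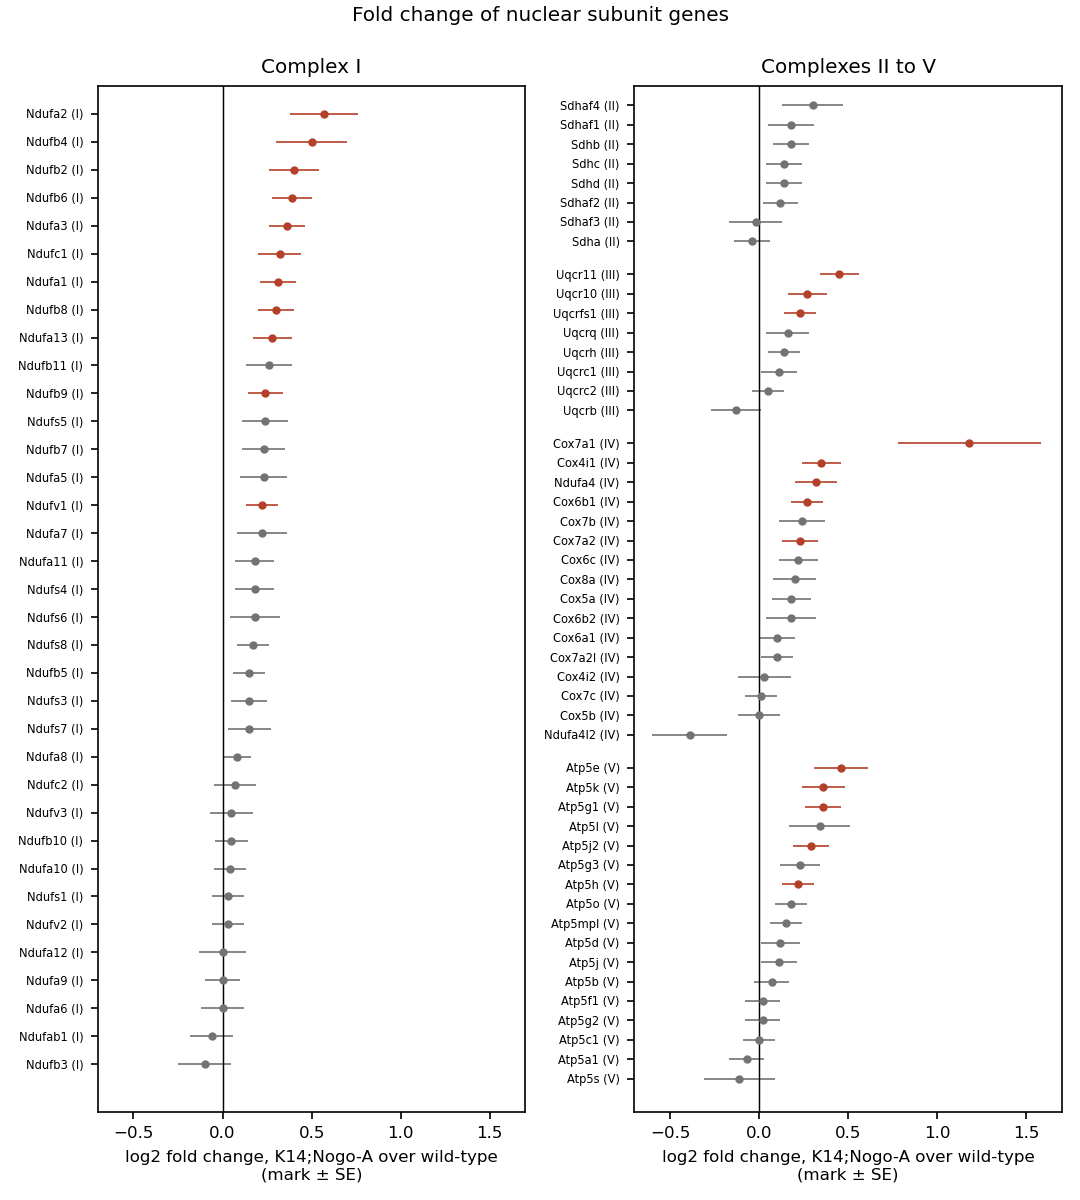
Log2 fold change of the member genes, all but 1 of complex I, in K14;Nogo-A over wild-type (horizontal axis) with standard errors, by complex; red marks have an unadjusted quasi-likelihood p under 0.05. Most marks lie between 0 and 0.5, no red mark lies left of 0, and Cox7a1 (1.18) and Ndufa4l2 (-0.39) are the ends.

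Complex I carries electrons from NADH through a flavin and a chain of iron-sulphur clusters. Of its 36 nuclear genes 11 (30.6%) had an unadjusted p under 0.05 in the higher direction, against 6.25% of all genes tested. Lower at this p were 0, against 6.66%. The 7 core subunits that hold the flavin and the clusters or lie beside them had a median of 0.15 and values from 0.03 to 0.22. The 29 accessory subunits had a median of 0.22 and values from -0.10 to 0.57. Principal transcripts were 870 to 2625 bases long in the core and 419 to 2447 in the accessory subunits. The part of length in these medians was not tested. Among the core subunits 1 of 7 (14.3%), Ndufv1, which binds NADH and the flavin, had a p under 0.05 (log2 fold change 0.22, SE 0.09). Among the accessory subunits 10 of 29 (34.5%) did. These 10 were Ndufa1, Ndufa2, Ndufa3, Ndufa13, Ndufb2, Ndufb4, Ndufb6, Ndufb8, Ndufb9 and Ndufc1, with log2 fold changes from 0.24 (Ndufb9) to 0.57 (Ndufa2).

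Ndufa2, a small accessory subunit at the tip of the matrix arm (chromosome 18, 36742332 to 36744557), had 115, 94.5, 113 and 108 CPM in the K14;Nogo-A libraries 1, 2, 7 and 10. In the wild-type libraries 3, 8 and 9 it had 62.0, 54.8 and 102 CPM. Wild-type library 9 thus lay among the K14;Nogo-A libraries, and the other 2 wild-type libraries lay far below. The log2 fold change was 0.57 (SE 0.19, adjusted p = 0.279). Its log2 fold change was 0.465 without wild-type library 3 and 0.403 without wild-type library 8, both under the size threshold, and 0.894 without wild-type library 9. With the Y-linked covariate it was 0.487, and within the libraries with low Y-linked genes 0.052.

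Ndufa3, an accessory subunit of the membrane arm (chromosome 7, 3617373 to 3620327), had 69.3, 57.1, 68.2 and 61.5 CPM in K14;Nogo-A and 46.4, 50 and 53.4 CPM in wild-type. The genotypes did not overlap, and the log2 fold change was 0.36 (SE 0.10, adjusted p = 0.220). Ndufb6, also of the membrane arm (chromosome 4, 40270591 to 40279421), had 51.2, 40.8, 52.5 and 44.7 CPM against 35.2, 38.2 and 34.8 CPM, without overlap, and a log2 fold change of 0.39 (SE 0.11, adjusted p = 0.221). Its exons overlap those of Smim27 on the other strand over 257 bases, and whether reads were counted by strand is not stated, so part of its reads may belong to that gene. Ndufa1, an X-linked membrane subunit needed for assembly (X chromosome, 37187588 to 37191163), had 51.0 to 61.4 CPM in K14;Nogo-A against 41.4 to 48.9 CPM in wild-type, with a log2 fold change of 0.31 (SE 0.10, adjusted p = 0.262).

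Ndufb11, X-linked as well and the complex I gene with the highest level per kilobase, had 163, 153, 160 and 170 CPM in K14;Nogo-A and 118, 115 and 173 CPM in wild-type. Wild-type library 9 was the highest of all 7 libraries, and the log2 fold change was 0.26 (SE 0.13, adjusted p = 0.438). Without wild-type library 9 it was 0.486, with an adjusted p under 0.05, without wild-type library 8 it was 0.159, and within the libraries with low Y-linked genes it was -0.099. The complex I genes furthest in the other direction were Ndufb3 (log2 fold change -0.10, SE 0.15), Ndufab1 (-0.06, SE 0.12), which is also the acyl carrier protein of mitochondrial fatty acid synthesis, and Ndufa12 (0.00, SE 0.13), and none had an unadjusted p under 0.05.

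Complex II, succinate dehydrogenase, is the one complex encoded wholly in the nucleus, and its first subunit also works in the tricarboxylic acid cycle. Of its 8 genes 0 were past an unadjusted p of 0.05, against 6.25% of all genes tested in the higher direction and 6.66% in the lower. In 0 did the genotypes not overlap, against 5.43% of all genes with K14;Nogo-A above and 6.09% below. For 8 genes a count of 0 is near these shares. The flavoprotein gene Sdha had 181, 214, 229 and 213 CPM in K14;Nogo-A and 218, 226 and 199 CPM in wild-type (log2 fold change -0.04, SE 0.10). The iron-sulphur subunit Sdhb (0.18, SE 0.10) and the membrane anchor Sdhd (0.14, SE 0.10) had estimates like those of the other complexes, each with overlapping genotypes, and so had Sdhc, the other anchor (0.14, SE 0.10). Of the assembly factors Sdhaf4 had the largest estimate (0.30, SE 0.17) and Sdhaf3 the smallest (-0.02, SE 0.15), with Sdhaf2 (0.12) and Sdhaf1 (0.18) between them.

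Complex III, the cytochrome bc1 complex, moves electrons from ubiquinol to cytochrome c. Of its 8 genes 3 (37.5%) were higher at an unadjusted p under 0.05, against 6.25% of all genes tested, and 0 lower, against 6.66%. Uqcr11, one of its smallest subunits (chromosome 10, 80402997 to 80406830), had the smallest p of all 85 genes. It had 89.7, 78.5, 101 and 91 CPM in the K14;Nogo-A libraries and 60.4, 62.0 and 76.3 CPM in wild-type. All K14;Nogo-A libraries lay above all wild-type libraries, the closest being K14;Nogo-A library 2 and wild-type library 9. The log2 fold change was 0.45 (SE 0.11, adjusted p = 0.199). Its start carries the ETS and NRF-1 letters printed above.

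Uqcrfs1, the Rieske iron-sulphur protein that takes the first electron from ubiquinol, had 142, 117, 131 and 126 CPM in K14;Nogo-A and 111, 107 and 113 CPM in wild-type. The genotypes did not overlap, and the log2 fold change was 0.23 (SE 0.09, adjusted p = 0.318). Uqcr10, another small subunit, had a log2 fold change of 0.27 (SE 0.11, adjusted p = 0.328), with K14;Nogo-A library 2 (72.4 CPM) below wild-type library 9 (75.8 CPM). The large core proteins Uqcrc1 and Uqcrc2 had 0.11 (SE 0.10) and 0.05 (SE 0.09), the small subunit Uqcrq 0.16 (SE 0.12), Uqcrh 0.14 (SE 0.09) and Uqcrb, which helps to shape the ubiquinone site, -0.13 (SE 0.14). In Uqcrb wild-type library 8 (96.8 CPM) was the highest of all 7 libraries and wild-type library 9 (63.0 CPM) was level with the lowest. Cyc1, the cytochrome c1 subunit of the same complex, lies outside the symbols used and had a log2 fold change of 0.22 (SE 0.10, adjusted p = 0.363), and Cycs, cytochrome c itself, had -0.06 (SE 0.12).

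Complex IV, cytochrome c oxidase, hands the electrons to oxygen. Of its 16 nuclear genes 5 (31.2%) were higher at an unadjusted p under 0.05, against 6.25% of all genes tested, and 0 lower, against 6.66%. The 11 general subunits had a median of 0.22 and values from 0.00 to 0.35. Cox4i1, the broadly used form of the largest nuclear subunit (chromosome 8, 120668222 to 120674207), had 324, 296, 336 and 334 CPM in K14;Nogo-A and 241, 223 and 298 CPM in wild-type. Wild-type library 9 overlapped with K14;Nogo-A library 2, and the log2 fold change was 0.35 (SE 0.11, adjusted p = 0.266). Cox6b1, which lies on the face that meets cytochrome c, had 147, 130, 154 and 150 CPM against 116, 117 and 129 CPM, a narrow gap without overlap, with a log2 fold change of 0.27 (SE 0.09, adjusted p = 0.278).

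Ndufa4 had a log2 fold change of 0.32 (SE 0.12, adjusted p = 0.308), and Cox7a2, the general form of subunit 7a, 0.23 (SE 0.10, adjusted p = 0.364), both with wild-type library 9 inside the K14;Nogo-A range. Cox8a, the most abundant complex IV gene per kilobase, had 0.20 (SE 0.12) and Cox5b, which binds zinc on the matrix side, 0.00 (SE 0.12). The second member past the study's thresholds, Cox7a1, is the form known from heart and skeletal muscle. It had 1.02, 0.751, 0.593 and 0.687 CPM in K14;Nogo-A and 0.286, 0.244 and 0.528 CPM in wild-type, without overlap, and a log2 fold change of 1.18 (SE 0.40, adjusted p = 0.271). These are 10 to 22 counts a library, and without wild-type library 3 or 8 its unadjusted p was above 0.05. Of the skeletal muscle markers 1 of 11 tested, Myh8, was past the thresholds in the same direction, against 2.02% of all genes. Myh8 had 0.323, 1.19, 1.46 and 1.41 CPM in K14;Nogo-A libraries 1, 2, 7 and 10 against 0.288 to 0.487 CPM in wild-type. In K14;Nogo-A library 1, where Cox7a1 was highest, the mean log2 CPM of the 11 markers was -1.1. In the other libraries it was -0.04 to 0.89. Myh3 was too low to be tested. The part of muscle RNA in the Cox7a1 value was not tested.

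Complex V makes ATP by rotation. Of its 17 genes 5 (29.4%) were higher at an unadjusted p under 0.05, against 6.25% of all genes tested, and 0 lower, against 6.66%. Both subunits of the catalytic head had estimates near 0. Atp5a1 had 957, 1010, 1130 and 1030 CPM in K14;Nogo-A and 1090, 1150 and 1030 CPM in wild-type (log2 fold change -0.07, SE 0.10). Atp5b had 1220 to 1430 CPM and 1220 to 1310 CPM (0.07, SE 0.10). Atp5c1, the central stalk that turns inside the head, had 0.00 (SE 0.09). For each of these 3 genes the genotypes overlapped.

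Atp5e, the small epsilon subunit at the foot of the central stalk (chromosome 2, 174461072 to 174464105), had 113, 80.5, 95.2 and 94.8 CPM in K14;Nogo-A and 65.0, 57.4 and 86.8 CPM in wild-type. Only K14;Nogo-A library 2 and wild-type library 9 crossed, and the log2 fold change was 0.46 (SE 0.15, adjusted p = 0.268). Atp5k, the membrane subunit e involved in pairing of the enzyme (chromosome 5, 108433244 to 108434448), had 62.9, 53.8, 59.3 and 53.2 CPM against 37.6, 45.1 and 51.7 CPM, without overlap, and a log2 fold change of 0.36 (SE 0.12, adjusted p = 0.270). The 4 small membrane subunits had a median of 0.32, the 5 subunits of the head and central stalk 0.07 and the 4 of the peripheral stalk 0.14. Principal transcripts were 371 to 955 bases long in the small membrane subunits and 421 to 2471 in the head and central stalk. The part of length in these medians was not tested. Atp5j2, subunit f of the membrane part (0.29, SE 0.10), and Atp5h, subunit d of the peripheral stalk (0.22, SE 0.09), were the remaining genes with an unadjusted p under 0.05 beside the c subunit gene Atp5g1. Atp5s had the lowest estimate of the group, -0.11 (SE 0.20).

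Several subunits are made from more than 1 gene, and the ratio of the 2 genes within a library needs no scaling between libraries. For 6 pairs both genes were among the 85, and their log2 ratios were compared by the exact two-sided permutation test over the 35 ways of assigning the libraries, whose smallest p is 0.0286, with adjustment over the 6 pairs. None passed an adjusted p of 0.05. The c subunit of the rotor ring is encoded by Atp5g1, Atp5g2 and Atp5g3, which differ in their import sequence and give the same mature protein. Atp5g1 had 172, 136, 156 and 152 CPM in K14;Nogo-A and 113, 113 and 133 CPM in wild-type (log2 fold change 0.36, SE 0.10, adjusted p = 0.228), while Atp5g2 had 83.1 to 104 CPM and 86.1 to 103 CPM (0.02, SE 0.10). The log2 ratio of Atp5g1 to Atp5g2 was 0.94, 0.71, 0.70 and 0.55 in the K14;Nogo-A libraries and 0.39, 0.40 and 0.37 in wild-type, without overlap. The difference was 0.34 (exact permutation p = 0.0571, adjusted p = 0.114). Most windows of Atp5g2 also occur in pseudogenes, so its counts are uncertain, and the part of the pseudogenes in this ratio was not tested. Atp5g3 to Atp5g2 differed by 0.21 (exact permutation p = 0.257, adjusted p = 0.308), with overlap, and by 0.069 without wild-type library 9.

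Of all c subunit counts Atp5g1 gave 30.5% ± 1.47 (SD, n = 4 K14;Nogo-A pups) against 27.8% ± 2.15 (SD, n = 3 wild-type pups), Atp5g2 gave 18.5% ± 1.89 and 21.3% ± 1.88, and Atp5g3 gave 51.0% ± 2.35 and 51.0% ± 4.04. Wild-type library 9, with 30.2% from Atp5g1, lay inside the K14;Nogo-A range of 28.5% to 32.1%.

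In complex IV 2 pairs hold a form known to be induced by low oxygen. Ndufa4l2 had 9.97, 6.63, 9.76 and 9.12 CPM in K14;Nogo-A and 12.4, 8.18 and 14.5 CPM in wild-type, and its log2 fold change of -0.39 (SE 0.21, adjusted p = 0.445) was the lowest of the 85. It was -0.204 without wild-type library 9, -0.594 without wild-type library 8 and -0.027 within the libraries with high Y-linked genes. Its log2 ratio to Ndufa4 was -4.24, -4.49, -4.15 and -4.10 against -3.19, -4.01 and -3.44. The ratio was lower in every K14;Nogo-A library than in any wild-type library, with a difference of -0.71 (exact permutation p = 0.0286, adjusted p = 0.114). Cox4i2 had 28.8 to 46.0 CPM and 32.9 to 42.8 CPM (0.03, SE 0.15), and its log2 ratio to Cox4i1 was -2.81, -3.36, -3.04 and -3.13 against -2.70, -2.76 and -2.80, again without overlap, with a difference of -0.34 (exact permutation p = 0.0571, adjusted p = 0.114). Both minor forms are known from pericytes, among other cells. Of the 10 endothelial and pericyte markers all had negative estimates, 5 with an unadjusted p under 0.05, against 6.66% of all genes in that direction. Their mean log2 CPM was 4.52 to 5.17 in K14;Nogo-A against 5.22 to 5.28 in wild-type. Among the pericyte markers the log2 fold change was -0.62 (SE 0.14) in Abcc9, -0.33 (SE 0.20) in Rgs5, -0.23 (SE 0.11) in Cspg4 and -0.15 (SE 0.19) in Kcnj8, of which only Abcc9 had an unadjusted p under 0.05. The part of these cells in the ratios was not tested. The muscle form Cox7a1 to Cox7a2 differed by 0.91 (exact permutation p = 0.0857, adjusted p = 0.129) and the testis form Cox6b2 to Cox6b1 by -0.08 (exact permutation p = 0.571, adjusted p = 0.571), both with overlap.

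**Figure D3:**
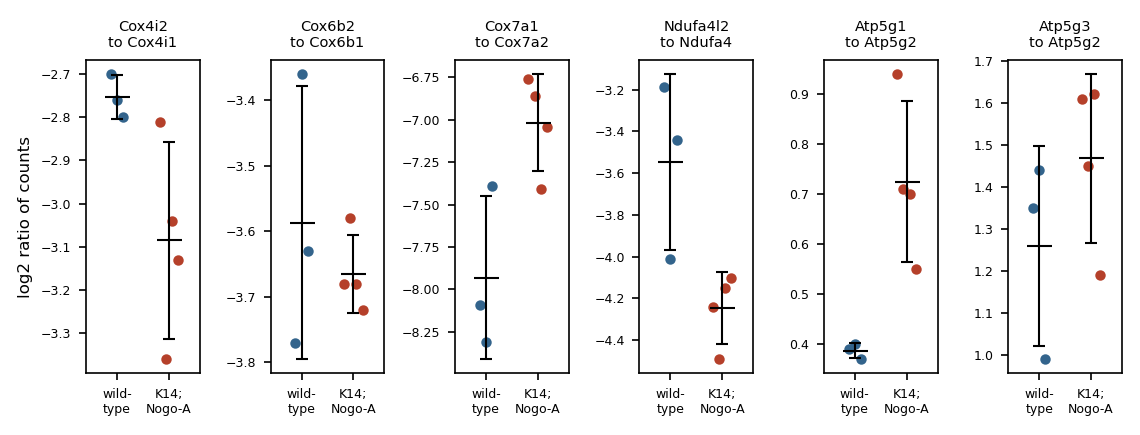
Log2 ratio of the counts of 2 genes for the same subunit (vertical axis, a separate scale for each pair) in each wild-type (blue) and K14;Nogo-A (red) library, with mean and SD. Cox4i2 to Cox4i1 and Ndufa4l2 to Ndufa4 lie lower and Atp5g1 to Atp5g2 higher in all 4 K14;Nogo-A libraries, and the other 3 pairs overlap.

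Other genes of the pathway were followed as lists. Of 48 assembly factors tested 4 (8.33%) had an unadjusted p under 0.05 in the higher direction, against 6.25% of all genes tested. In the lower direction there were 0, against 6.66%. The median log2 fold change was 0.10, and Sdhaf1 to Sdhaf4 are in both lists. Past the study's thresholds was Ndufaf8, an assembly factor of complex I, with 11.6 to 16.8 CPM in K14;Nogo-A against 9.17 to 10.2 CPM in wild-type (0.51, SE 0.15, adjusted p = 0.233). Of 20 regulators of mitochondrial biogenesis 2 were higher and 0 lower, with a median of 0.04. These 2 were the coactivator Ppargc1a (0.53, SE 0.20, adjusted p = 0.308) and Esrra, the nuclear receptor ERR alpha, its partner (0.54, SE 0.13, adjusted p = 0.184). Esrra had 23.9, 24.9, 27.6 and 20.6 CPM in K14;Nogo-A and 18.7, 15.6 and 15.6 CPM in wild-type. Ppargc1a had 14.5, 21.3, 18.8 and 13.4 CPM and 11.6, 9.04 and 14.9 CPM, so that the genotypes were apart in Esrra and overlapped in Ppargc1a. In the whole list all K14;Nogo-A libraries lay above wild-type in 2 genes and below in 2, against 5.43% and 6.09% of all genes tested. Nrf1, the gene of NRF-1, was among the latter, with 43.3 to 44.5 CPM in K14;Nogo-A against 45.5 to 50.6 CPM (log2 fold change -0.15, SE 0.09, adjusted p = 0.491).

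The 16 genes of the tricarboxylic acid cycle stood at a median of 0.01 on the log2 scale with 0 higher and 0 lower, and the 14 carriers and outer membrane proteins a median of -0.03 with 0 and 0. Of 78 mitochondrial ribosomal proteins 8 (10.3%) were higher and 0 lower (median 0.05), against 6.25% and 6.66% of all genes tested. Of 92 cytosolic ribosomal proteins 20 (21.7%) were higher and 2 lower (median 0.15), against the same shares of all genes. The 21 glycolysis genes had a median of 0.01, with 0 higher and 2 lower. These differences between lists were not tested. Of the 13 subunit genes in mitochondrial DNA 8 were tested, with a median of 0.19, 1 higher (mt-Nd6) and 0 lower. The other 5 (mt-Nd4l, mt-Co2, mt-Co3, mt-Atp6 and mt-Atp8) stayed under the filter, and mt-Nd3, which is in the median, had 0.558 to 1.46 CPM. By contrast mt-Co1 had 4550 to 6770 CPM and mt-Cytb 3340 to 5100 CPM over the 7 libraries. Whether reads of the low genes were left out in counting was not tested, so their values are uncertain. mt-Nd6, the one gene of the 13 read from the opposite strand, had 37.7, 28.1, 12.8 and 11.2 CPM in K14;Nogo-A and 3.79, 3.34 and 2.79 CPM in wild-type (log2 fold change 2.74, SE 0.50, adjusted p = 0.184).

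**Figure D4:**
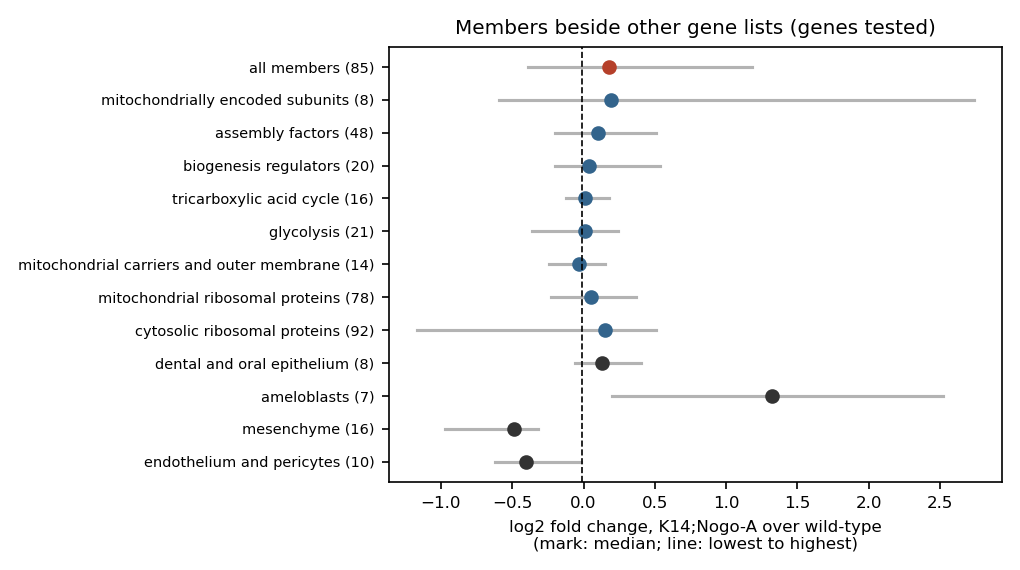
Median log2 fold change (mark) and range (line) of K14;Nogo-A over wild-type for the 85 members (red), other metabolic and ribosomal lists (blue) and cell type markers (black), with the number of genes tested; the dashed line is the median of all genes. The members stand at 0.18, the tricarboxylic acid cycle and glycolysis at 0.01, ameloblast markers at 1.32 and mesenchyme markers at -0.49.

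The mean log2 CPM of the mesenchyme list and of the endothelium and pericyte list did not overlap between the genotypes. In the other marker lists it did, and 0 markers in any list passed an adjusted p of 0.05. All 8 markers of dental and oral epithelium were expressed (mean log2 CPM from 8.28 to 8.72 over the libraries), with 0 past an unadjusted p of 0.05. All 7 ameloblast markers had positive estimates (median 1.32), 3 of them past the study's thresholds, against 2.02% of all genes. Their mean log2 CPM was 7.73 to 9.59 in K14;Nogo-A against 7.29 to 7.97 in wild-type. All 16 mesenchyme markers had negative estimates (median -0.49), 12 with an unadjusted p under 0.05, against 6.66% of all genes in that direction. Their mean log2 CPM was 7.76 to 8.06 in K14;Nogo-A against 8.47 to 8.56 in wild-type. The erythroid (median -0.26), immune (-0.31) and Schwann cell and neuron (-0.30) lists had 0, 0 and 1 genes past an unadjusted p of 0.05. The part of these shifts in the members' values was not tested.

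The members have short transcripts, and short transcripts in general had higher estimates in K14;Nogo-A. Among the other genes tested, the median log2 fold change was 0.11 for 906 genes with principal transcripts of up to 1000 bases (67.1% above 0), 0.04 for 3102 genes of 1000 to 2000 bases, -0.01 for 5986 of 2000 to 4000 bases and -0.06 for 4416 longer ones (37.2% above 0). In the same classes the members had 0.22 (52 genes, 48 above 0), 0.11 (22 genes, 19 above 0), 0.08 (10 genes, 7 above 0) and -0.02 (1 gene). In each class the median of the members stood above that of the other genes. Lengths within a class were not matched, and the longest class holds 1 member. The part of transcript length in the members' values was not tested.

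**Figure D5:**
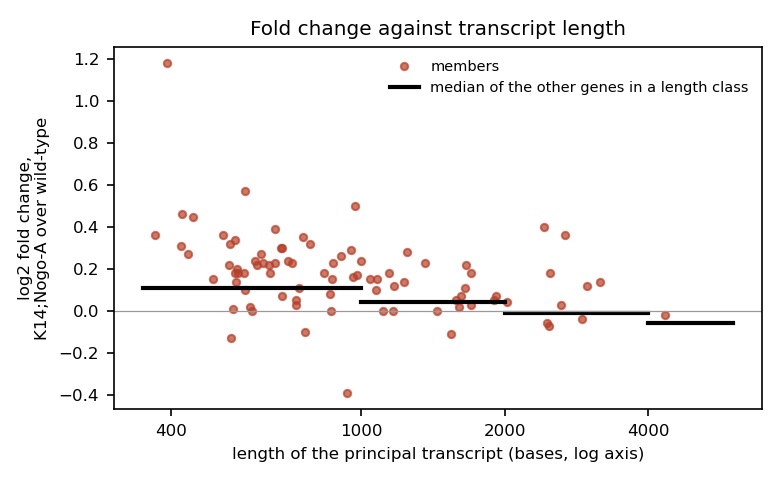
Log2 fold change of each member (red, vertical axis) against the length of its principal transcript (horizontal axis, log scale), with the median of all other genes tested in 4 length classes (black lines). The black lines fall from 0.11 to -0.06 with length, and 48 of the 52 members of up to 1000 bases have a log2 fold change above 0.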

How the data were processed

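Dental epithelium RNA of 4 K14;Nogo-A and 3 wild-type pups was used, with groups from the sample labels; 1 further wild-type pup was not analysed here. Whole-number raw counts for each Ensembl gene were deposited, which the authors made by poly(A) TruSeq sequencing, STAR 2.7.1 alignment to GRCm38 (Ensembl release 91) and featureCounts; adapter trimming is given as Trimmomatic in the submitters' processing notes and as fastp in the paper. Whether featureCounts used strand is not stated in the labels or the paper. Totals lay between 20929207 and 41219439 counts per library. For the members other than Cox7a1 (10 to 22 counts) counting error is small at this depth, and replicate spread sets the precision. The p-values of edgeR's test set the difference between genotypes against the spread between pups, estimated with information shared between genes.

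Gene IDs were joined to GENCODE M21 (113 of 25700 without a symbol, 0.0468% of counts). The 14791 genes that reached 10 counts in 50% or more of either genotype's libraries were tested with the robust quasi-likelihood test of edgeR 4.0.16 in R 4.3.3 with TMM factors and Benjamini-Hochberg adjustment over all genes. CPM use TMM library sizes, and log2 CPM a prior count of 2. Standard errors are the log2 fold change divided by the root of F. Paralog ratios used counts plus 0.5 and an exact permutation test (scipy) of the absolute difference of means. The tests were tried on simulated counts. Alternatives were RLE, upper-quartile or no factors, the likelihood-ratio test, DESeq2 1.42.0, limma-voom (limma 3.58.1), other filters and thresholds, left-out libraries, a Y-linked covariate and thinned counts. Fits within the libraries with high or low Y-linked genes, and medians over parts of the members, were chosen after seeing the data.

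Named are, for each complex, the 2 genes highest per kilobase and up to 3 per direction with the smallest p, every member past the study's thresholds, every member of a pair, Rtn4 and list genes past the thresholds; all other members and genes were named after their values were seen. The members and gene lists were chosen with earlier results of these data known. Promoter sequences come from RefSeq (GRCm38.p6). The values of 1 complex I gene are not reported here by name.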

Additional observations from a re-analysis of the deposited data

How the results depend on the processing

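The median log2 fold change of the members stayed between 0.09 and 0.28 under every alternative and moved by more than the spread between libraries (0.10) only within the libraries with high Y-linked genes (0.2817); it was 0.12 to 0.21 with 1 library left out, 0.12 with library totals alone, where all genes had -0.06, and 0.17 over the 45 members without exon overlap or shared windows. Members higher at an adjusted p under 0.05 numbered 0, and 1 with the likelihood-ratio test (0.602% of all genes), 3 with DESeq2 (1.0%), 16 within the libraries with high Y-linked genes (1.31%), a fit with a single K14;Nogo-A library, and 0 to 2 with 1 library left out. Members higher past the study's thresholds numbered 2 in the main fit, against 2.02% of all genes, a share not given here for the alternatives. They numbered 3 (Ndufb4 added) with RLE factors, DESeq2 and limma-voom and 1 with a filter of 1 CPM in 3 libraries. When a log2 change of 0.25 sufficed they numbered 19. With 1 library left out they numbered 0 to 6 (0 without wild-type library 3 or 8, 6 without wild-type library 9, 5 without K14;Nogo-A library 2). With the Y-linked covariate they were Cox7a1 and Ndufb4, without Ndufa2 (0.487). Lower were 0, 1 within the libraries with low Y-linked genes and 0 to 1 with 1 library left out, in both cases Ndufa4l2. Of the 15 members with an unadjusted p under 0.05 that the naming rule takes, Ndufb6 kept it within the libraries with low Y-linked genes (0.407) and 14 lost it, with values from 0.031 (Ndufa4) to 0.352 (Cox7a1), among them Ndufa1 with 0.318. These fits hold fewer libraries; any other cause was not tested. Changes of sign came mostly in estimates near 0, but also in Ndufb11 and Sdhaf4 (0.26 and 0.302 with all libraries). With 1 library left out the ranges were -0.216 to 0.037 (Ndufb3), -0.132 to 0.035 (Ndufab1), -0.076 to 0.15 (Ndufa12), -0.082 to 0.027 (Sdha), -0.084 to 0.061 (Sdhaf3), -0.267 to 0.028 (Uqcrb), -0.112 to 0.106 (Cox5b), -0.258 to 0.013 (Atp5s), -0.027 to 0.064 (Atp5c1), -0.064 to 0.147 (Cox4i2), -0.034 to 0.122 (Atp5g2) and -0.17 to 0.036 (the log2 ratio of Cox6b2 to Cox6b1). With the Y-linked covariate the values were 0.033 (Ndufb3), 0.035 (Ndufab1), 0.051 (Ndufa12), 0.045 (Sdhaf3), 0.008 (Uqcrb), 0.083 (Cox5b), 0.012 (Atp5s), 0.025 (Atp5c1) and -0.04 (Atp5g2). Within the libraries with low Y-linked genes they were -0.099 (Ndufb11), 0.166 (Ndufb3), 0.002 (Ndufab1), 0.196 (Ndufa12), -0.107 (Sdhaf4), 0.14 (Sdha), 0.186 (Uqcrb), 0.285 (Cox5b), 0.049 (Atp5a1), 0.073 (Atp5c1), -0.249 (Cox4i2), -0.126 (Atp5g2) and -0.034 (Rtn4), and within those with high ones 0.113 (Ndufab1), 0.165 (Sdhaf3), -0.032 (Atp5b), 0.238 (Atp5s) and 0.006 (Atp5c1). RLE factors gave 0.007 for Ndufa12, Cox5b and Atp5c1, DESeq2 0.006, 0.008 and 0.007, limma-voom 0.008 (Cox5b) and 0.002 (Atp5c1), library totals -0.016 (Cox4i2) and -0.034 (Atp5g2), and thinned counts 0.063 (Sdhaf3) and 0.005 (Atp5c1). A pseudocount of 2 changed no call of the 6 ratios. No paired analysis was possible because the genotypes share no replicate number and the labels do not give the litter of each pup.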
